A study of Mus musculus with 12 samples.

Results

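The proteasome subunits that every cell uses were followed through the striatum of Q92 Huntington knock-in mice and wild-type controls. The set was the 31 genes of the alpha ring, the beta ring, the ATPase ring, the rest of the base and the lid, each read from its brightest probe set that maps to that gene alone, out of 18193 genes with such a probe set. It held 7 alpha ring genes (Psma1 to Psma7), 7 beta ring genes (Psmb1 to Psmb7), 6 ATPase genes (Psmc1 to Psmc6), 3 other base genes (Psmd1, Psmd2 and Psmd4) and 8 lid genes (Psmd3, Psmd6, Psmd7, Psmd8, Psmd11, Psmd12, Psmd13 and Psmd14). All 31 were measured, and no filter on low values was applied.

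Striatal RNA from 12 mice of the strain C57BL/6 was hybridised to Affymetrix mouse expression arrays, 1 array per mouse and 3 mice in each of 4 groups. The Q92 mice were HdhQ92/Q92, with a stretch of 92 CAG repeats taken from exon 1 of the human HD gene placed in both copies of the mouse gene (now Htt), so that the mutant protein is made wherever the mouse gene is active. The young wild-type group held mice wt_3m_436, wt_3m_438 and wt_3m_467 (2 males and 1 female) and the young Q92 group mice Q92_3m_439, Q92_3m_440 and Q92_3m_466 (2 females and 1 male), all at 100 to 103 days of age. The old wild-type group held mice wt_18m_9, wt_18m_12 and wt_18m_17 (604, 596 and 596 days) and the old Q92 group mice Q92_18m_11, Q92_18m_25 and Q92_18m_66 (596, 567 and 574 days), with 2 females and 1 male in each. Mice are named by group and animal number, and values of a group follow this order throughout. Neither the dissection nor whether groups were processed on the same day was given in the sources used here.

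The proteasome is the cell's main protease for proteins tagged with ubiquitin. Its core particle is a barrel of stacked rings, in which the outer alpha rings form a gate and the inner beta rings hold the proteolytic sites, and the regulatory particle that caps it recognises, unfolds and deubiquitinates the substrate. Expanded huntingtin forms inclusions that contain ubiquitin and proteasome subunits, which is why subunit levels are of interest in striatal projection neurons. The subunit genes are known to be controlled as a group by Nfe2l1 (Nrf1), a transcription factor that is itself degraded by the proteasome and that binds antioxidant response elements in subunit promoters.

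Promoter sequence is shown because the subunit genes are known to share such elements. RefSeq windows on GRCm38.p6 were found for 25 of the 31 genes, and the 250 bases before each start were searched on both strands for the core of the antioxidant response element, TGACNNNGC, in which N is any base. The core was present upstream of 4 of the 25 genes (16%), against 11.52% of 27025 genes with a window. The other motif searched was CCAAT, on both strands. It was upstream of 10 of the 25 genes (40%), against 37.49% of all genes. A match is a run of letters and not a measured binding site. The 4 windows with a match are printed 5′ to 3′ on the gene's strand with the match in capitals, followed by that of Psmd11, the member with the lowest p-value at 18 months, which held no match. They lie at chr14:54617996-54618245 (minus strand, Psmb5), chr11:70525107-70525356 (plus strand, Psmb6), chr14:45329574-45329823 (plus strand, Psmc6), chr11:107479278-107479527 (plus strand, Psmd12) and chr11:80428365-80428614 (plus strand, Psmd11).
Psmb5: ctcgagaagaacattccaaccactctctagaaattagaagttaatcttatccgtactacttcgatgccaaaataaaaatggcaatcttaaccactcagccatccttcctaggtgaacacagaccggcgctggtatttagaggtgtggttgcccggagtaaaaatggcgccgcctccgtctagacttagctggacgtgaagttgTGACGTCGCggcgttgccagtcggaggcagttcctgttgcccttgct
Psmb6: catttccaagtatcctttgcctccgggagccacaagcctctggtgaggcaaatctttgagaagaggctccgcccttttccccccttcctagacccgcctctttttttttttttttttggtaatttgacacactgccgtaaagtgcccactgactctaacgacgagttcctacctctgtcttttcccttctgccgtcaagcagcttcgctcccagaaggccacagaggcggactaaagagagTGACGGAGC
Psmc6: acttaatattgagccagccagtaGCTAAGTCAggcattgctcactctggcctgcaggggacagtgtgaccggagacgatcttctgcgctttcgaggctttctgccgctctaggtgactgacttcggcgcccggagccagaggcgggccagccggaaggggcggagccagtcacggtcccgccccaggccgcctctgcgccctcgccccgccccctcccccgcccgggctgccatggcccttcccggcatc
Psmd12: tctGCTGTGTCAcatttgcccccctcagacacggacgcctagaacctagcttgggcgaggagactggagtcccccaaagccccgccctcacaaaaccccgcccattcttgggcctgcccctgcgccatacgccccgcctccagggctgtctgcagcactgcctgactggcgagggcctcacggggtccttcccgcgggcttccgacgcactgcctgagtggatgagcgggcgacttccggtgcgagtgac
Psmd11: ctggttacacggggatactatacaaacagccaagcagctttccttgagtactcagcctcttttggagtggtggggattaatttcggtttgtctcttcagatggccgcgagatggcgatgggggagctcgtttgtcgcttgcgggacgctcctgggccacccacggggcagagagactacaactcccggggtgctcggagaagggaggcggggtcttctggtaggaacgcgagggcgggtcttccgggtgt

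Among these sequences the match began 47 bases before the start of Psmb5, 9 before that of Psmb6, 227 before that of Psmc6 and 247 before that of Psmd12. It ran with the gene in Psmb5 and Psmb6, both catalytic subunits of the core, and on the opposite strand in Psmc6 and Psmd12.

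Across the arrays, the 11 measured markers of striatal projection neurons (Ppp1r1b, Drd1 and Penk among them) lay at a median rank above 98.2% of all genes, so the tissue carried the genes that define it. All 11 had lower means in old Q92 than in old wild-type mice (median log2 difference -0.88), and 1 passed the test. Averaged over the proteasome genes, mouse Q92_18m_66 was the highest and mouse wt_18m_12 the lowest of the 12, both at 18 months. Member results at 18 months are given with and without these 2 mice. Differences of other pathway genes at 18 months are given with all mice only. Young mouse Q92_3m_439 was the next lowest, at -0.08 relative to the 12-array means (wt_18m_12 at -0.11). In it 7 of the 31 members lay above their mean (48.8% of all genes) and 8 were the lowest of the 12 arrays (11.9%). The striatum was measured whole, so fewer cells of a type and less RNA per cell cannot be told apart.

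The members were among the brightly measured genes of the striatum. On the deposited log2 scale their mean signals over the 12 arrays ran from 8.01 (Psmb2) to 10.75 (Psma3), which placed them above 79.0% to 98.2% of the genes. Signals of different probe sets carry their own probe affinities, so these positions do not order the subunits by abundance. Their values were also steady from mouse to mouse. The SD over all 12 arrays had a median of 0.112 log2 units across the members and of 0.155 across all genes. It was lowest for Psmb6, the caspase-like catalytic subunit, at 0.0456, and highest for Psmd13, a lid subunit, at 0.257.

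The first question was whether old Q92 striatum differed from old wild-type striatum. At 18 months the Q92 mean was above the wild-type mean for 30 of the 31 members, where 49.6% of all genes had a positive difference. The median log2 difference was 0.13 over the members and -0.00136 over all genes, and the members ranged from -0.02 (Psmc4) to 0.33 (Psmd13). No member passed the test in either direction: limma with Benjamini-Hochberg adjustment over all 45037 probe sets gave a lowest adjusted p of 0.490 among them, and 24 probe sets (0.0533%) passed at 0.05 on the whole array. Before adjustment, 5 members had a p under 0.05 with a higher Q92 mean (3.07% of all genes did) and 0 with a lower one (4.95% of all genes). That count was 2 with only the 6 old arrays in the fit (3.28% of all genes) and 3 with all probe sets of a gene averaged (3.69%). It was 7 with the mean of the cortical excitatory neuron markers as a covariate (758 of 18193 genes). It was also 7 without mouse wt_18m_9 (528 genes) and without mouse Q92_18m_11 (489 genes). With mice of equal age in days as a block it was 0 (2.24%), with 26 members higher (44.6% of all genes) and a median of 0.08. At 18 months that block compares 1 Q92 mouse, Q92_18m_11, with wt_18m_12 and wt_18m_17, because no other old mice of both genotypes share an age in days. In 9 members all 3 Q92 values lay above all 3 wild-type values, against 6.50% of all genes, and in 0 members below, against 7.51%. Those 9 were Psma7, Psmb5, Psmb7, Psmc2, Psmc3, Psmc6, Psmd1, Psmd8 and Psmd11. The plot of subunit signals by mouse gives each value behind these counts.

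Markers of several cell types also differed in their means between the old groups. All 8 measured astrocyte markers (of 8 listed) had a lower Q92 mean (median log2 difference -0.28), as did all 7 vascular markers (of 8, -0.16). A higher Q92 mean was measured for 2 of 8 oligodendrocyte markers (of 9 listed, median -0.10), 2 of 9 microglial markers (-0.23), 2 of 8 thalamic and pallidal neuron markers (-0.33), 2 of 7 choroid plexus markers (-0.35) and 6 of 7 cortical excitatory neuron markers (0.58). None of these passed the test (limma), and 1 projection neuron marker did. Relative to the 12-array means, the astrocyte list averaged 0.16 to 0.27 in the old wild-type mice and -0.26 to 0.20 in the old Q92 mice, and the oligodendrocyte list 0.04 to 0.17 and -0.27 to 0.06. The vascular list averaged -0.02 to 0.14 and -0.23 to 0.02, and the microglial list 0.13 to 0.55 and -0.17 to 0.53, so that the ranges of these 4 lists overlapped between the groups.

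**Figure D1:**
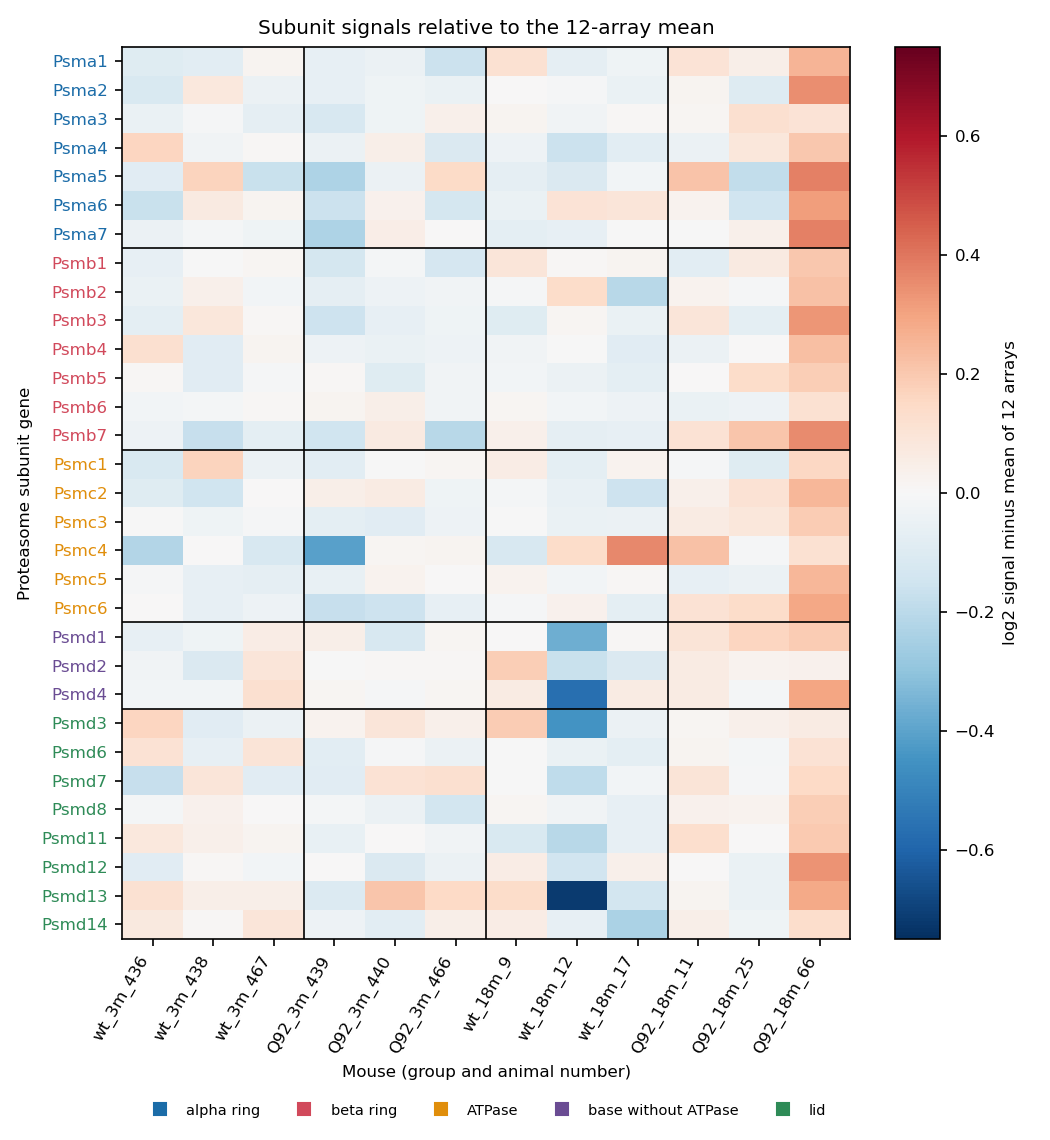
Each cell gives the log2 signal of 1 subunit gene (rows, coloured by class) in 1 mouse (columns, by group), minus that gene's mean over the 12 arrays, with red above and blue below the mean. The column of mouse Q92_18m_66 is red for all 31 genes, and the deepest blue cells are those of Psmd13, Psmd4, Psmd3 and Psmc4, the first 3 in mouse wt_18m_12.

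The alpha ring genes encode the outer rings whose tails close the entrance of the barrel. All 7 had a higher Q92 mean at 18 months, with a median difference of 0.13. The differences were 0.20 for Psma5, 0.19 for Psma7, 0.17 for Psma4, 0.13 for Psma1, 0.11 for Psma2, 0.08 for Psma3 and 0.02 for Psma6. Psma4 had the lowest p of the class. Its log2 signals were 9.65, 9.53 and 9.61 in the old wild-type mice (mean 9.60 ± 0.06, SD, n = 3) and 9.65, 9.77 and 9.89 in the old Q92 mice (9.77 ± 0.12, SD, n = 3). The groups overlapped through mouse Q92_18m_11, and the difference of 0.17 (SE 0.09, limma adjusted p 0.709) did not pass.

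The beta ring holds the proteolytic sites, with chymotrypsin-like activity in Psmb5, caspase-like in Psmb6 and trypsin-like in Psmb7. All 7 beta genes had a higher Q92 mean, with a median difference of 0.10. The catalytic subunits differed by 0.25 (Psmb7), 0.15 (Psmb5) and 0.02 (Psmb6), and the subunits without a catalytic site by 0.16 (Psmb3), 0.10 (Psmb2), 0.10 (Psmb4) and 0.02 (Psmb1). Psmb7 had the lowest p of the class. It measured 10.42, 10.31 and 10.31 in the old wild-type mice (10.35 ± 0.06, SD, n = 3) and 10.48, 10.58 and 10.73 in the old Q92 mice (10.60 ± 0.12, SD, n = 3). All 3 Q92 values lay above the wild-type values, with Q92_18m_66 the highest, and the difference of 0.25 (SE 0.10) had a limma adjusted p of 0.554.

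The ATPases form the ring that unfolds substrates and threads them into the core. Of the 6 genes, 5 had a higher Q92 mean, with a class median of 0.09. Psmc2 (0.21), Psmc6 (0.20) and Psmc3 (0.15) had the larger differences, and Psmc5 (0.04), Psmc1 (0.02) and Psmc4 (-0.02) the smaller. Psmc6 measured 8.97, 9.01 and 8.90 in the old wild-type mice (8.96 ± 0.05, SD, n = 3) and 9.09, 9.11 and 9.27 in the old Q92 mice (9.16 ± 0.10, SD, n = 3). Psmc2 measured 10.11, 10.07 and 9.97 in the old wild-type mice (10.05 ± 0.07, SD, n = 3) and 10.16, 10.23 and 10.37 in the old Q92 mice (10.26 ± 0.11, SD, n = 3). For both genes the groups did not overlap and Q92_18m_66 was the highest. The limma adjusted p was 0.595 for Psmc6 (difference 0.20, SE 0.08) and 0.597 for Psmc2 (difference 0.21, SE 0.09).

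The other base subunits are the scaffolds Psmd1 and Psmd2, on which ubiquitin-binding and associated proteins dock, and Psmd4, a ubiquitin receptor. All 3 had a higher Q92 mean, with the class median of 0.26 the highest of the 5 classes. The differences were 0.27 for Psmd1, 0.26 for Psmd4 and 0.07 for Psmd2. Psmd1 measured 9.88, 9.51 and 9.88 in the old wild-type mice (9.75 ± 0.22, SD, n = 3) and 9.97, 10.03 and 10.06 in the old Q92 mice (10.02 ± 0.05, SD, n = 3). The groups did not overlap, and the spread of the wild-type group came from wt_18m_12, the lowest of all 12 arrays. The difference of 0.27 (SE 0.11) had a limma adjusted p of 0.569. Psmd4 showed the same low mouse, with 9.61, 8.98 and 9.61 in the wild-type mice and 9.61, 9.53 and 9.84 in the Q92 mice.

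The lid carries Psmd14, the deubiquitinase that removes ubiquitin chains from the substrate, its partner Psmd7, and scaffold subunits that clamp the lid to the base and core, of which Psmd11 is one. All 8 lid genes had a higher Q92 mean, with a median of 0.13. The differences were 0.33 for Psmd13, 0.24 for Psmd11, 0.15 for Psmd7, 0.14 for Psmd3, 0.13 for Psmd14, 0.11 for Psmd12, 0.10 for Psmd8 and 0.08 for Psmd6. Psmd11 had the lowest p of all members. Its signals were 10.35, 10.26 and 10.40 in the old wild-type mice (10.33 ± 0.07, SD, n = 3) and 10.59, 10.47 and 10.66 in the old Q92 mice (10.57 ± 0.10, SD, n = 3). All 3 Q92 values lay above the wild-type values, and the difference was 0.24 (SE 0.08, 95% interval 0.06 to 0.42, limma adjusted p 0.490). Psmd13, with the larger difference, overlapped: 8.16, 7.31 and 7.89 in the wild-type mice and 8.05, 7.97 and 8.31 in the Q92 mice, with mouse wt_18m_9 above 2 of the 3 Q92 mice (SE 0.18, limma adjusted p 0.709).

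**Figure D2:**
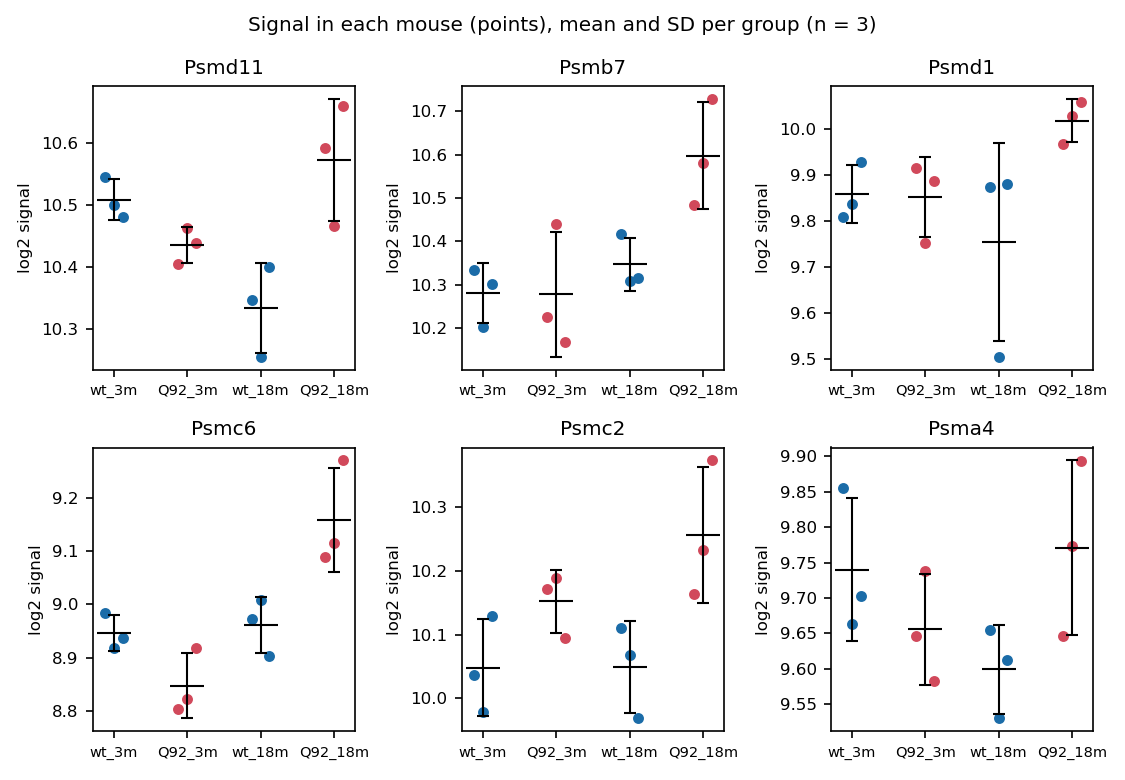
Points are the log2 signals of single mice for the 6 members named with every value, in the 4 groups (blue wild type, red Q92), with the group mean and SD (n = 3) as lines and each panel on its own axis, which does not start at 0. At 18 months the Q92 points of Psmd11, Psmb7, Psmd1, Psmc6 and Psmc2 lie above the wild-type points, and those of Psma4 overlap them.

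The difference at 18 months was uneven between mice. In mouse Q92_18m_66 all 31 members lay above their 12-array mean, and 26 were the highest of the 12 arrays, where 56.2% and 16.5% of all genes were so. Relative to the 12-array means its members averaged 0.22 higher, from 0.03 to 0.38, while Q92_18m_11 and Q92_18m_25 averaged 0.04 and 0.01, with 24 and 16 members above the mean. In the wild-type and young Q92 mice other than mouse wt_18m_12, that average lay between -0.08 (Q92_3m_439) and 0.01. The within-group SD of a mouse's member mean was 0.0663. In Q92_18m_66 the classes averaged 0.28 (alpha ring), 0.23 (beta ring), 0.21 (ATPase), 0.17 (other base) and 0.18 (lid), so that no class stayed at the mean.

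Mouse wt_18m_12 was the lowest. Its members averaged -0.11, with 6 of 31 above the mean (52.6% of all genes) and 9 the lowest of the 12 arrays (6.87% of all genes were lowest there). The low class averages were in the regulatory particle outside the ATPase ring: the other base subunits averaged -0.37 and the lid -0.23. The alpha ring (-0.05), beta ring (0.00) and ATPases (-0.00) lay near their means. The alpha ring gene Psma4 (9.53) was also at its lowest of the 12 arrays. Within the lid, Psmd6, Psmd8 and Psmd14 read 9.55, 9.28 and 10.14, near their 12-array means of 9.60, 9.30 and 10.21. Psmd3 read 7.90 against 8.35. The lowest member was Psmd13, at -0.72 from its mean. Another bright probe set of Psmd4 read 8.07 in this mouse and 8.67 to 8.84 in the other wild-type mice of that age, and the next brightest Psmd13 probe set read 6.58 there and 6.90 to 7.02 in the others.

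Without mouse Q92_18m_66, 23 of the 31 members had a higher Q92 mean (44.7% of all genes), the median difference was 0.07, 0 members had an unadjusted p under 0.05 with a higher mean (3.38% of all genes), and the lowest limma adjusted p was 0.566, with 21 probe sets (0.0466%) past 0.05 on the whole array. Without mouse wt_18m_12 instead, 28 were higher (51.4% of all genes), the median was 0.10 and 1 had an unadjusted p under 0.05 with a higher mean (2.44% of all genes). Without mouse wt_18m_17 that count was 3 (2.23%). Without both Q92_18m_66 and wt_18m_12, a choice made after the values were seen, 20 were higher (46.3% of all genes), the median was 0.05, the range was -0.09 to 0.17 and 11 probe sets (0.0244%) passed, none of them a member's (lowest limma adjusted p 0.731). The class medians without both were 0.05 (alpha ring), 0.08 (beta ring), 0.04 (ATPase), 0.00384 (other base) and 0.05 (lid), so the base subunits lost the lead they had with all mice. Psmd13 went from 0.33 to -0.01 and Psmd4 from 0.26 to -0.04. Psmb7 (0.17), Psmc6 (0.16), Psmc2 (0.16), Psmd11 (0.15) and Psmd1 (0.12) were among the 20 with a positive difference without both mice. They are the 5 with the largest moderated t with all mice, a choice that itself favours a positive difference here. Psmb5 (0.11) and Psmb2 (0.11) were close to Psmd1.

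**Figure D3:**
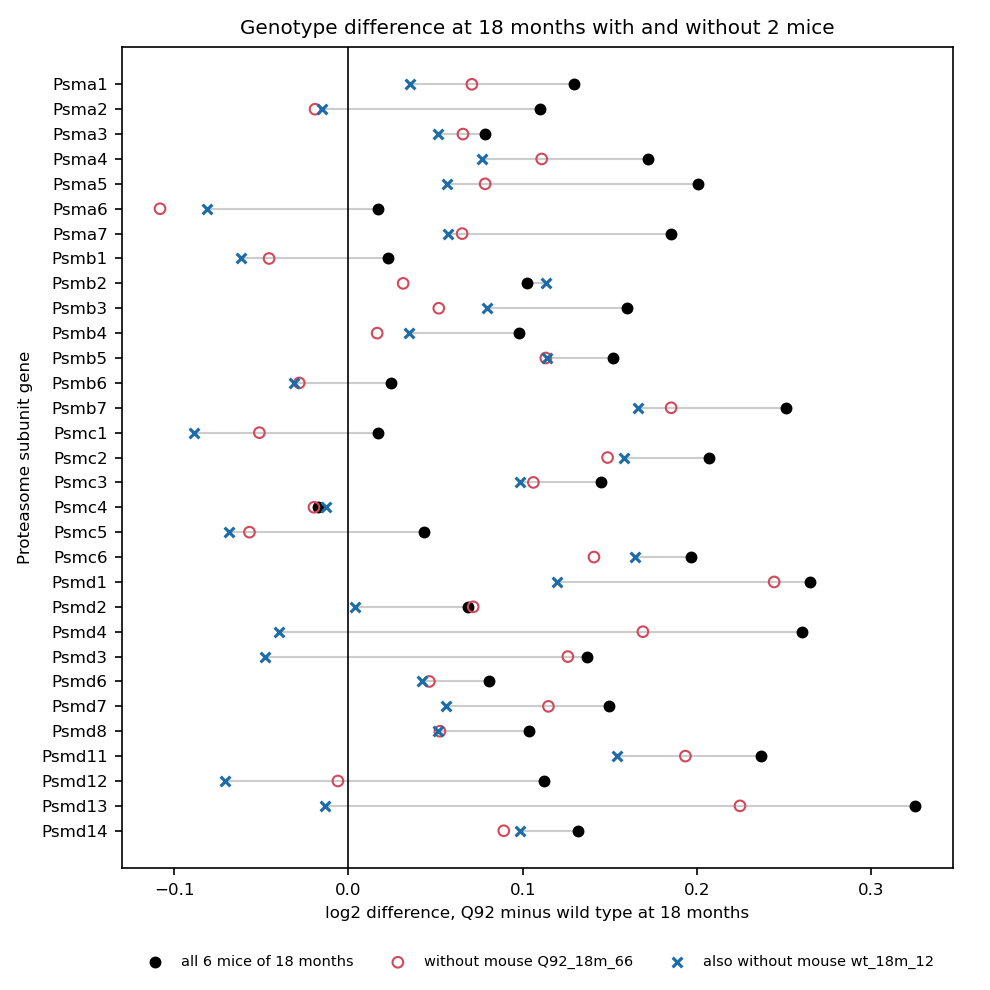
Each row gives 1 subunit gene's log2 difference (Q92 minus wild type at 18 months) from all 6 old mice (black), without mouse Q92_18m_66 (open red) and without mouse wt_18m_12 as well (blue cross). The median falls from 0.13 to 0.07 and 0.05, and Psmd4, Psmd3 and Psmd13 cross 0 at the last step.

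Marker and control signals of these 2 mice are given beside those of the others. In mouse Q92_18m_66 the projection neuron markers averaged -1.08 relative to their 12-array means (11 of 13 listed genes measured; the other old Q92 mice were at -0.62 and -0.36, old wild-type mice between 0.09 and 0.26). Its thalamic and pallidal neuron markers (8 of 8 measured) averaged 0.77, the highest of the 12, and its cortical excitatory neuron markers (7 of 8) -0.71, the lowest, while Q92_18m_11 and Q92_18m_25 were both at 0.99. Its microglial markers (9 of 9) averaged 0.53, close to mouse wt_18m_17 at 0.55. The array's 18S ribosomal RNA control probe sets (3′, 5′ and M) read 8.01, 8.31 and 6.41 in Q92_18m_66, against at most 6.65, 5.75 and 5.39 in the old wild-type mice. They read 7.19, 7.52 and 6.01 in Q92_18m_11, also above every old wild-type mouse, and 6.51, 6.21 and 5.21 in Q92_18m_25. Young mice wt_3m_438 (7.62, 8.70 and 6.82) and Q92_3m_466 (7.90, 11.18 and 6.71) were higher than Q92_18m_66 on the 5′ and M ones and lower on the 3′ one. In mouse wt_18m_12 the choroid plexus markers (7 of 7) averaged 1.90 and its thalamic and pallidal markers 0.56, close to wt_18m_17 at 0.54. The choroid plexus markers were highest in Q92_3m_439, at 2.09. There the alpha ring averaged -0.13, the ATPases -0.12, the beta ring -0.07, the lid -0.04 and the other base subunits 0.02. With the 18S signal, the cortical markers or the thalamic and pallidal markers as a covariate, the median difference of the members at 18 months was 0.10, 0.17 or 0.15, and 0 members passed (limma). With 3 mice a group, these fits do not measure how much RNA of a cell type entered the proteasome values. That part was not tested for cortical, thalamic and pallidal neurons. Nor was it tested for projection neurons, astrocytes, oligodendrocytes, vascular cells, microglia or choroid plexus.

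**Figure D4:**
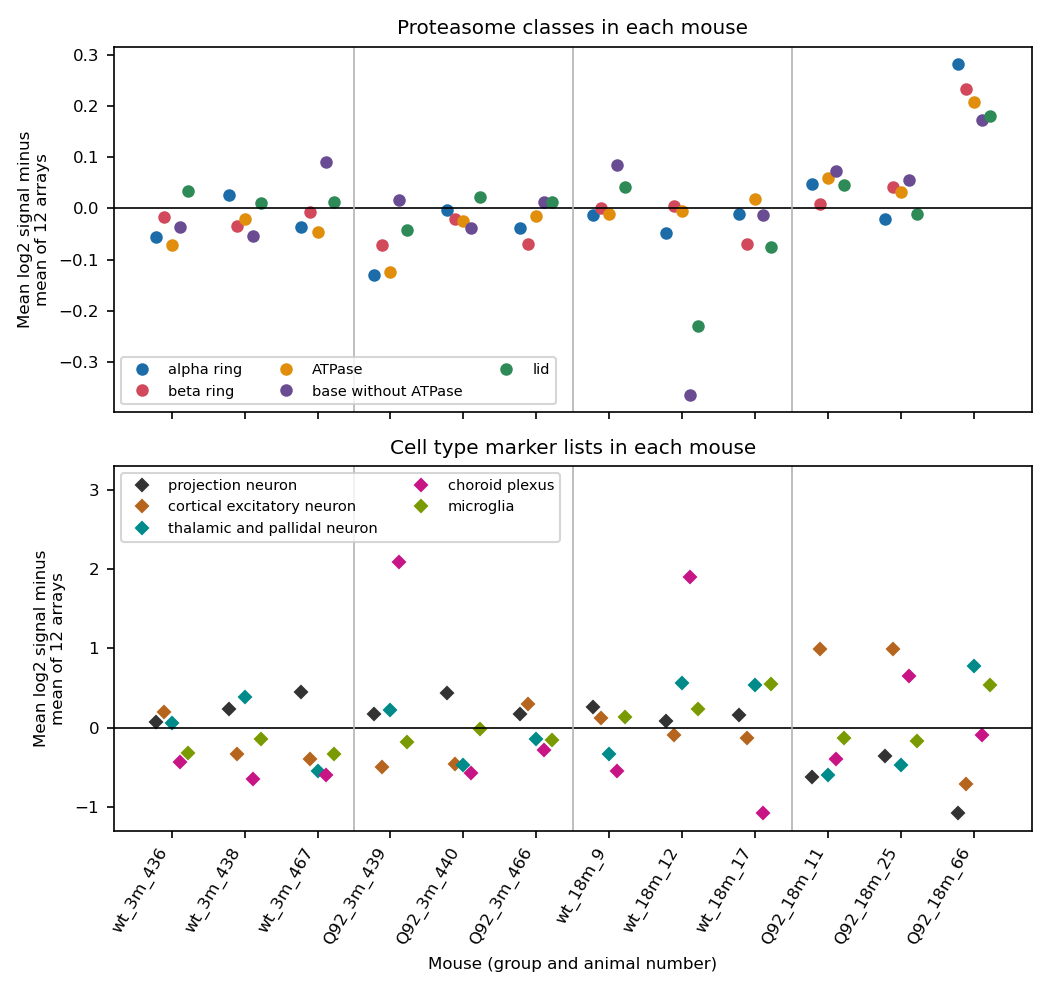
Points are mean log2 signals minus the 12-array mean in each mouse, for the 5 proteasome classes (top) and for 5 of the cell type marker lists (bottom), on axes of different scale. In mouse Q92_18m_66 all 5 classes lie between 0.17 and 0.28 while the projection neuron markers lie at -1.08, and in mouse wt_18m_12 the other base (-0.37) and lid (-0.23) classes lie below the rest.

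The second question was whether young Q92 mice already differed. At 3 months 8 of the 31 members had a higher Q92 mean, against 42.6% of all genes, the median log2 difference was -0.02 over the members and -0.02 over all genes, and the range was -0.10 to 0.10. No member passed (limma, 5 of 45037 probe sets, 0.0111%), and 0 had an unadjusted p under 0.05 (2.27% of all genes, in either direction). In 3 members all Q92 values lay below all wild-type values (4.34% of all genes), Psmc3, Psmc6 and Psmd11, and in 0 members above (2.30%). The members with the largest moderated t were the ATPases Psmc6 (-0.10) and Psmc2 (0.10) and the lid subunits Psmd6 (-0.09) and Psmd7 (0.10), each with a limma adjusted p of 1.00. Psmc6 measured 8.98, 8.92 and 8.94 in the young wild-type mice and 8.80, 8.82 and 8.92 in the young Q92 mice, so that the groups touched at 8.92. Psmc2 measured 10.04, 9.98 and 10.13 in the young wild-type mice and 10.17, 10.19 and 10.10 in the young Q92 mice, which overlapped.

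**Figure D5:**
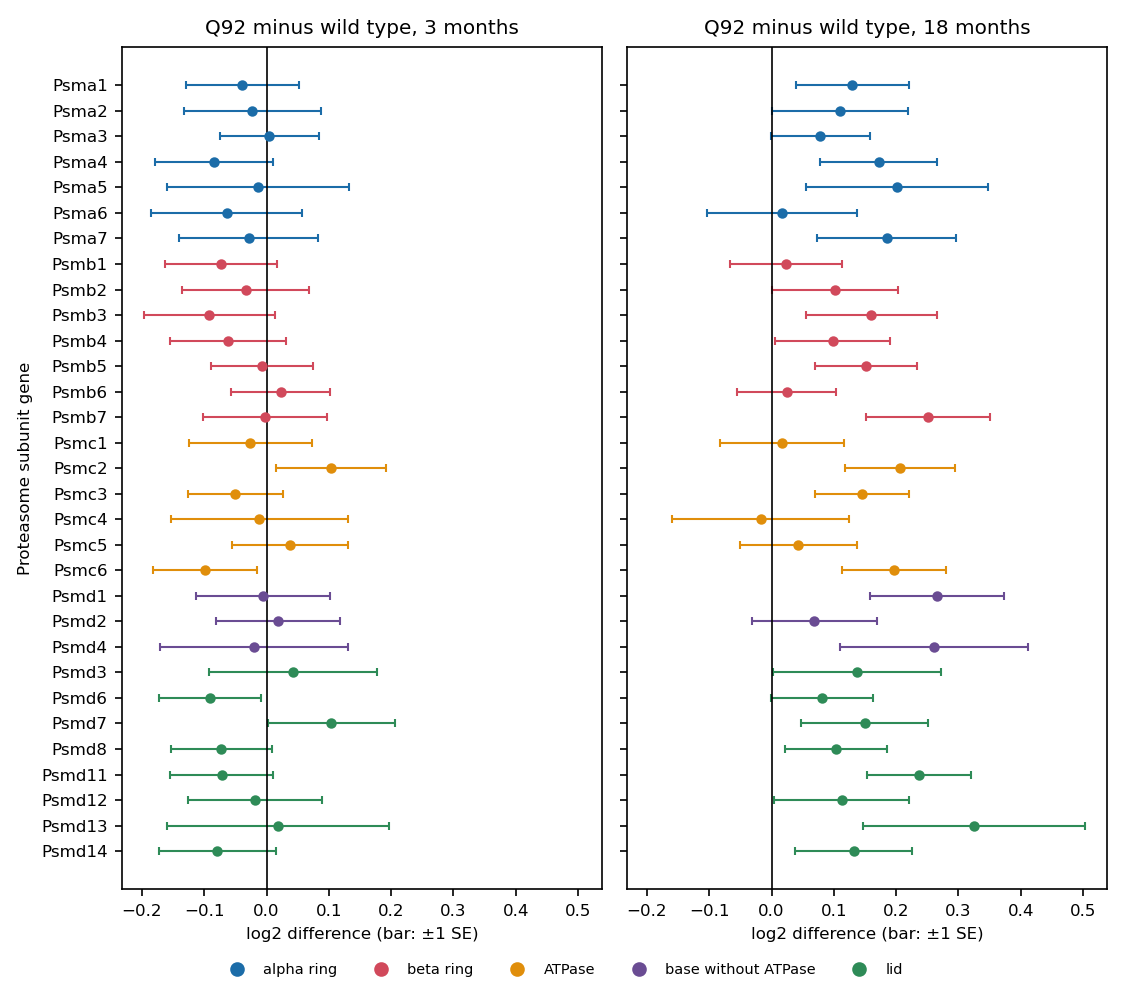
Points are log2 differences (Q92 minus wild type) of the 31 subunit genes at 3 months (left) and 18 months (right), coloured by class, with 1 SE on each side. At 3 months they lie between -0.10 and 0.10, and at 18 months all but Psmc4 lie above 0.

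The change of the genotype difference between the ages was positive for 30 of the 31 members (54.3% of all genes), with a median of 0.16 over the members and 0.02 over all genes. None passed: 0 of 45037 probe sets (0%) did in this interaction term (limma), and the lowest adjusted p of a member was 0.946. Unadjusted, 2 members had a p under 0.05 with a positive change (2.52% of all genes) and 0 with a negative one (3.28%). They were Psmd11 (change 0.31, SE 0.12) and Psmc6 (change 0.30, SE 0.12), both with a limma adjusted p of 0.946. Psma4 (0.26, limma adjusted p 0.946) and Psmc3 (0.20, 0.950) followed. The count of 2 became 0 with equal age in days as a block (1.97% of all genes), with all probe sets averaged (2.79%) and without both Q92_18m_66 and wt_18m_12 (2.17%), and 4 with the cortical marker covariate (3.86%). It was 1 without Q92_18m_66 (2.37%), wt_18m_12 (2.22%), wt_18m_17 (1.88%) or wt_3m_436 (2.01%). The median of the change was 0.21 with the cortical marker covariate, 0.09 without mouse Q92_18m_66 and 0.07 without wt_18m_12 as well.

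In the wild-type mice, the members differed in direction with age between classes. From 3 to 18 months 11 of 31 had a higher mean (47.3% of all genes), and the median difference was -0.01 over the members and -0.01 over all genes. A higher old mean was measured for 4 of 7 alpha ring (median 0.01), 2 of 7 beta ring (-0.01) and 4 of 6 ATPase genes (0.01). It was measured for 0 of 3 other base (-0.11) and 1 of 8 lid genes (-0.10), the classes that averaged -0.37 and -0.23 in mouse wt_18m_12. No member passed (limma, 23 of 45037 probe sets, 0.0511%) and 0 had an unadjusted p under 0.05, where 6.52% of all genes did with a higher and 4.45% with a lower old mean. Without wt_18m_9, 2 members had such a p, 1 in each direction (8.62% of all genes, both directions together). In 2 members, Psmd11 and Psma4, all 3 old values lay below all 3 young ones (8.81% of all genes), and in 0 members above (9.76%). Psmd11 measured 10.54, 10.50 and 10.48 in the young wild-type mice (10.51 ± 0.03, SD, n = 3), which is 0.17 above the old wild-type mean (difference -0.17, limma adjusted p 0.494). Psma4 differed by -0.14 (limma adjusted p 0.618), Psmd13 by -0.31 (0.570) and the ATPase Psmc4 by 0.24 (0.579). Without mouse wt_18m_12 the difference of Psmd13 was -0.07, and 15 of 31 members had a higher old mean (8795 of 18193 genes).

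In the Q92 mice 28 of 31 members had a higher mean at 18 than at 3 months (51.9% of all genes), with a median difference of 0.14 over the members and 0.00758 over all genes. No member passed (limma, 93 of 45037 probe sets, 0.206%). Unadjusted, 4 had a p under 0.05 with a higher old mean (7.42% of all genes) and 0 with a lower one (5.03%). They were Psmc6 (0.31, SE 0.08, limma adjusted p 0.183), Psmb7 (0.32, 0.253), Psma1 (0.22, 0.406) and Psmc3 (0.18, 0.433). Psmb7 measured 10.23, 10.44 and 10.17 in the young Q92 mice, all under the lowest old Q92 value of 10.48. Without Q92_18m_66 the median difference was 0.05 and 2 members had an unadjusted p under 0.05 with a higher old mean (5.88% of all genes). That count was also 2 without Q92_3m_466 (6.99%) and with only the arrays compared (6.34%), 7 without Q92_18m_11 (6.38%) and 11 with the cortical marker covariate (9.48%). The comparisons share groups (old Q92 mice enter both the genotype and the ageing difference), so their values stand side by side and are not separate evidence.

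The members were represented by 67 probe sets mapped to 1 member alone, and 18 of the 31 genes had more than 1. Of the 36 probe sets other than the brightest, 25 had a higher Q92 mean at 18 months, 24 had the sign of their gene's brightest probe set, and 0 passed. In mouse Q92_18m_66, 27 of the 36 lay above their 12-array mean, and in the other mice between 11 and 21. The widest disagreement was within Psmc6, whose 3 probe sets ran from -0.39 to 0.20. The lowest of them was dim, with a mean log2 signal of 5.49 against 8.98 for the brightest. The remaining Psmc6 probe set, with a mean of 8.23, differed by 0.03 at 18 months. It read 8.28, 8.35 and 8.53 in the old wild-type mice and 8.51, 8.27 and 8.47 in the old Q92 mice, which overlapped. In the young mice it read 7.58, 8.25 and 8.05 (wild type) and 7.92, 8.40 and 8.13 (Q92), which also overlapped. Averaging all probe sets of a gene in place of taking the brightest turned the difference at 18 months for Psmc6 (-0.05), Psmd7 (-0.06) and Psma3 (-0.21) negative and that of Psmc4 (0.08) positive.

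Of 47 other genes of the pathway, 36 had a probe set of their own. At 18 months 22 of the 36 had a higher Q92 mean, the median difference was 0.03, and 0 passed (limma). Assembly chaperones (6 of 8 higher, median 0.05), activators and the inhibitor (5 of 5, 0.06) and other regulatory particle proteins (4 of 5, 0.17) had positive medians, while shuttle factors with Vcp (3 of 7, -0.01), transcriptional regulators (2 of 5, -0.06) and immuno- and tissue-specific subunits (1 of 5, -0.12) had negative ones. The last of these medians is the value of Psma8, which was dim, with a mean log2 signal of 3.36. Psmb11 was also dim, at 2.91, where the median of all values was 4.98. The deubiquitinases of the regulatory particle measured 0.38 for Uchl5 (limma adjusted p 0.569) and 0.17 for Usp14 (0.676), the assembly chaperone Psmg3 0.21 (0.646) and the shuttle factor Ubqln4 -0.24 (0.621). The interferon-induced catalytic subunits, which replace Psmb6, Psmb5 and Psmb7 in immune settings, measured -0.67 (Psmb9, limma adjusted p 0.577), -0.44 (Psmb8, 0.827) and 0.28 (Psmb10, 0.774). For each of them the genotypes overlapped. Psmb9 read 5.38, 5.75 and 6.66 in the old wild-type mice and 5.12, 4.89 and 5.75 in the old Q92 mice. Psmb8 read 5.51, 6.23 and 6.92 in the old wild-type mice and 5.48, 5.36 and 6.51 in the old Q92 mice. Mouse wt_18m_17 was the highest of the 12 arrays for both.

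Nfe2l2 (Nrf2), which controls antioxidant genes and can act on the same promoter elements as Nfe2l1, was the 1 pathway gene that passed a test in any of the 5 comparisons. In wild-type mice it rose with age, from 6.33, 6.35 and 6.12 in young mice (6.27 ± 0.13, SD, n = 3) to 6.88, 7.16 and 7.10 in old mice (7.05 ± 0.15, SD, n = 3), a log2 difference of 0.78 (SE 0.10, limma adjusted p 0.0279) with no overlap. That call was lost with sex as a covariate (limma adjusted p 0.0770), with quantile normalisation (0.0503), with only the arrays compared in the fit (0.150) and with the mean of all its probe sets (difference 0.38, limma adjusted p 0.140). It was also lost when any 1 of wt_18m_12, wt_18m_17, wt_3m_436, wt_3m_438 and wt_3m_467 was left out (adjusted p 0.0742 to 0.101), while the difference stayed between 0.70 and 0.82. Old Q92 mice measured 6.63, 6.57 and 6.73, all below the old wild-type mice (difference -0.40, SE 0.10, limma adjusted p 0.251), and their difference from the young Q92 mice did not pass (0.32, limma adjusted p 0.273). Nfe2l1 differed by -0.15 at 18 months (limma adjusted p 0.809). Htt itself, the gene that carries the repeat, measured 0.10 higher in Q92 mice at 18 months (limma adjusted p 0.883) and 0.30 higher at 3 months (1.00).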

How the data were processed

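Total RNA from the striatum of 12 mice was extracted with TRIzol and cleaned on RNeasy columns, labelled with biotin and hybridised to Affymetrix whole-genome mouse expression arrays, per the labels' protocols. The deposited table holds log2 signals per probe set, which the authors made with RMA and the affy package, per the submitters' processing notes. Their versions and whether all 12 arrays were normalised together were not stated in these notes. Because RMA equalises the overall signal of arrays, a difference is measured against the array's remaining genes. There is no read depth, and precision depends on how many arrays each group has.

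Of 45101 probe sets, 64 controls were left out and 45037 were tested as deposited. Probe sets were named from the platform annotation, in which 34945 had 1 gene symbol, 932 several and 9160 none, and 34741 matched a RefSeq gene ID. Each gene was read from the probe set mapped to it alone with the highest mean over the 12 arrays, which gave 18193 genes.

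A limma 3.58.1 model (R 4.3.3) with 1 mean per group was fitted to all 12 arrays (8 residual degrees of freedom) with empirical Bayes moderation. It gave 5 contrasts, each adjusted by Benjamini-Hochberg over all 45037 probe sets, with a threshold of 0.05 and two-sided p-values. The fit was also run on simulated data in which every probe set had its own independent noise. Such data hold no shift shared by the genes of an array, so they do not bear on mice such as Q92_18m_66. Nothing in the labels says that the mice came from separate litters, so p-values measure the spread between these mice. Lists were described by counts and medians beside all genes and were not tested. The text names all 31 members at 18 months, with each mouse's value for the 5 with the largest moderated t and the largest of each class. For every other contrast it names the 4 members with the largest moderated t. Of other pathway genes it names those past the threshold, the 6 with the largest moderated t at 18 months, the immunoproteasome subunits and Nfe2l1. Psma8 and Psmb11 were named for their low signals. Psmd3, Psmd4, Psmd6, Psmd8, Psmd13 and Psmd14 were named for their values in single mice after these were seen. The members and lists were chosen with earlier results of these data known.

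Alternatives were quantile normalisation, a common median, removal of probe sets under the 40th percentile of mean signal, a robust prior with a trend on intensity, weights for arrays, a term for sex, only the arrays compared, mice of equal age in days as a block (only 1 old Q92 mouse shares its age with old wild-type mice), all probe sets averaged, the highest median in place of the highest mean, the 18S controls or cortical markers as a covariate, and each mouse left out. A thalamic and pallidal marker covariate and leaving out 2 mice together were added after the values were seen. Figures were drawn with matplotlib 3.10.9 in Python 3.11.15.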

Additional observations from a re-analysis of the deposited data

Results flagged for a closer look

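In 3 members all Q92 mice lay above all wild-type mice at 18 months and below all of them at 3 months, which 103 of the 18193 genes showed in this or the reverse order. The change of the log2 genotype difference from 3 to 18 months was 0.31 for Psmd11, 0.30 for Psmc6 and 0.20 for Psmc3. The interaction term in limma did not pass for any of them (adjusted p 0.946, 0.946 and 0.950). The young groups of Psmc6 touched at 8.92 and the nearest young mice of Psmc3 lay at 9.95 and 9.96. Over the alternatives the change of Psmc6 ran from -0.07 (all probe sets averaged) to 0.33 (without Q92_3m_466). That of Psmd11 ran from 0.12 to 0.36 and that of Psmc3 from 0.15 to 0.22. The next brightest Psmd11 probe sets, with mean signals of 9.18, 8.93 and 8.17, differed by 0.20, 0.04 and 0.16 at 18 months. In the brightest of these the genotypes overlapped at both ages.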

How the results depend on the processing

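No animal number is shared between groups, so mice were matched only by age in days. At 18 months that block rests on 1 Q92 mouse (Q92_18m_11, against wt_18m_12 and wt_18m_17), which is assumed to vary like the other groups. No member passed the threshold in any comparison under any alternative run. At 18 months the median difference of the members was 0.08 with this block, and over the other alternatives that kept all mice it lay between 0.10 and 0.17 (cortical marker covariate), with 26 to 30 members higher. Leaving out 1 mouse gave 0.071 (Q92_18m_66) to 0.17 (Q92_18m_25) with 23 to 31 higher, and leaving out Q92_18m_66 and wt_18m_12 gave 0.051. Over left-out mice the median change of the genotype difference ranged from 0.071 without both to 0.20 without Q92_18m_25, and the median of Q92 ageing from 0.051 without Q92_18m_66, with or without wt_18m_12, to 0.16 without Q92_18m_25. With the cortical marker covariate they were 0.21 and 0.18. The number of members higher at 3 months ran from 7 to 13 when a mouse was left out (13 without Q92_3m_439), and that of wild-type ageing was 7 after quantile normalisation and 18 with a common median, where the main value was 11. Probe sets past the threshold on the whole array numbered 24 at 18 months (4 to 330 over the alternatives), 5 at 3 months (1 to 5), 0 for the change (0 to 8), 23 for wild-type ageing (0 to 65) and 93 for Q92 ageing (7 to 305).

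Some small differences at 18 months changed sign, and the cause was not tested. With array weights these were Psma6 (-0.045), Psmb1 (-0.013), Psmc1 (-0.027) and Psmc5 (-0.0098). With equal age in days as a block, and so in Q92_18m_11 alone, they were Psma6 (-0.066), Psmb1 (-0.095), Psmb6 (-0.020) and Psmc5 (-0.057), and with the 18S covariate Psma6 (-0.042) and Psmc1 (-0.061). With all probe sets averaged, they were Psma3 (-0.21), Psmc4 (0.076), Psmc6 (-0.055) and Psmd7 (-0.055), and at 3 months Psmc6 (0.011) and Psmd7 (-0.0054), with a change of -0.065 for Psmc6. Over left-out mice, the 2 together included, the ranges that crossed 0 were -0.019 to 0.20 (Psma2), -0.11 to 0.12 (Psma6), -0.062 to 0.094 (Psmb1), -0.031 to 0.054 (Psmb6), -0.089 to 0.070 (Psmc1), -0.14 to 0.099 (Psmc4), -0.068 to 0.098 (Psmc5), -0.048 to 0.28 (Psmd3), -0.040 to 0.36 (Psmd4), -0.071 to 0.18 (Psmd12) and -0.013 to 0.51 (Psmd13). The rise of Nfe2l2 in wild-type ageing was also not called after quantile normalisation (limma adjusted p 0.0503), with sex as a covariate (0.0770), with only the arrays compared (0.150), with all probe sets averaged (0.140) or without both mice (0.0627).

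With 3 mice a group, the median SE of a member's genotype difference was 0.0993 on the log2 scale, and 26 of the 31 differences at 18 months were within 2 standard errors of 0.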
